A study of Mus musculus with 24 samples.

Results

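The expression of 10 genes that encode secreted or cell-surface proteins of the epididymis was examined in RNA from mouse fat. The genes were Gpx5, Adam7, Lcn5, Lcn8, Lcn9, Lcn10, Crisp1, Cst8, Rnase9 and Rnase10, and they were taken by symbol, through the GENCODE annotation, from a table of 54232 genes. They were chosen by name as a measure of epididymis RNA in fat, and selected on earlier sums of the counts of epididymis genes in each of these libraries, so their levels across libraries are given as a description. All 10 genes were found in the table and all 10 passed the filter of more than 10 counts over all libraries, which 26116 genes passed.

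Male C57BL6 mice, of 10 weeks per the series design and of a range that begins there per the methods, received, by intraperitoneal injection, a lentivirus in which the adiponectin promoter, active in adipocytes, drove either GFP alone or NaKtide, a peptide made to block Src signalling through the Na,K-ATPase, joined to GFP through a self-cleaving peptide. They then underwent either a sham operation or a 5/6 partial nephrectomy (PNx), a surgical model of renal failure. The 4 groups of 6 libraries each were sham with GFP (Control), sham with NaKtide (NaKtide), PNx with GFP (PNx) and PNx with NaKtide (PNx+NaKtide), so every mouse received a lentivirus that encoded GFP. RNA was labelled as adipose tissue, with no depot named in the labels, and was sequenced as paired reads of 50 bases. The study's text describes the tissue as visceral fat. Library totals ran from 679250 to 2979505 counts, and a floor of 3 counts per library corresponded to 0.738 to 5.90 CPM on the trimmed-mean (TMM) scale used for all gene levels (CPM, counts scaled by the size of the library).

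The epididymis is the coiled duct in which sperm from the testis mature, and in the male mouse the gonadal fat pad lies against it. Its epithelium works in segments: the initial segment and the caput (head) secrete proteins that coat or surround the passing sperm, the corpus and the cauda (body and tail) secrete others, and most of these genes depend on androgen. Gpx5 is a glutathione peroxidase of the caput that lacks selenocysteine and protects sperm from peroxides, and Adam7 is a sperm-surface member of a disintegrin and metalloprotease family. Lcn5, Lcn8, Lcn9 and Lcn10 are lipocalins, small carriers of hydrophobic molecules, of which Lcn5 binds retinoic acid. Rnase9 and Rnase10 are secreted relatives of pancreatic ribonuclease, Cst8 is a cystatin-related protein that is also known from germ cells of the testis, and Crisp1 is a cysteine-rich secretory protein that binds to sperm.

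The 10 genes were all protein-coding and none shared an exon base with a gene on the opposite strand. Over the whole table, 9100 of the 54079 genes matched to GENCODE M21 (16.8%) had such an overlap, and those genes held 79.9% of all counts. In the coordinates of GRCm38, Lcn8 (ENSMUSG00000036449, chr2:25653120-25656217, plus strand), Lcn5 (ENSMUSG00000026937, chr2:25657952-25661977, plus strand), Lcn10 (ENSMUSG00000047356, chr2:25682726-25686081, plus strand) and Lcn9 (ENSMUSG00000023210, chr2:25823153-25825537, plus strand) formed a cluster, with 1734 bp between Lcn8 and Lcn5. On chromosome 14, Rnase10 (ENSMUSG00000021872, chr14:51007751-51010758, plus strand) and Rnase9 (ENSMUSG00000052382, chr14:51038459-51041869, minus strand) lay 27700 bp apart. The other genes were Cst8 (ENSMUSG00000027442, chr2:148798785-148805595, plus strand), Adam7 (ENSMUSG00000022056, chr14:68497336-68533741, minus strand), Gpx5 (ENSMUSG00000004344, chr13:21286429-21292731, minus strand) and Crisp1 (ENSMUSG00000025431, chr17:40293758-40319207, minus strand).

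The sequences just before the transcription start are shown for the neighbouring pairs Lcn8 and Lcn5, and Rnase10 and Rnase9, because within each pair the counts were of similar size in most libraries and fell far apart in 1 library described later. They are RefSeq sequences on GRCm38.p6, written 5′ to 3′ on the strand of the gene. Capitals mark a TATA box (TATAAA) or the core of an androgen response element (AGAACA), searched on both strands as TTTATA and TGTTCT too. The Rnase9 window leaves out 2 bases that GENCODE places in its exon.
Lcn8, chr2:25652868-25653117, plus strand: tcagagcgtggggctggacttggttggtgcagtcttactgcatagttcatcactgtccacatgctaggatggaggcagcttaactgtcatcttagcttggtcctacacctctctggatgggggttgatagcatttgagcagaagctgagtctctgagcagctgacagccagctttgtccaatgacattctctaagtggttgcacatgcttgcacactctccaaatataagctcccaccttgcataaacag
Lcn5, chr2:25657702-25657951, plus strand: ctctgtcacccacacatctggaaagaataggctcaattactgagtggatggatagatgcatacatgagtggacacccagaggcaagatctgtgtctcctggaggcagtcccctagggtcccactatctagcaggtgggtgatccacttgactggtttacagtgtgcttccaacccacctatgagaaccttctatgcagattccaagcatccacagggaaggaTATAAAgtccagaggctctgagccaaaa
Rnase10, chr14:51007501-51007750, plus strand: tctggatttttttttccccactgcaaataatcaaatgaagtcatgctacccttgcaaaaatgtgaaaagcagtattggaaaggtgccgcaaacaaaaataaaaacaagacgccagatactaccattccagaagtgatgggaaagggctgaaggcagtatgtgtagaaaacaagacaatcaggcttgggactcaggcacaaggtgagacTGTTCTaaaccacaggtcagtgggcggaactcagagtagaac
Rnase9, chr14:51041870-51042117, minus strand: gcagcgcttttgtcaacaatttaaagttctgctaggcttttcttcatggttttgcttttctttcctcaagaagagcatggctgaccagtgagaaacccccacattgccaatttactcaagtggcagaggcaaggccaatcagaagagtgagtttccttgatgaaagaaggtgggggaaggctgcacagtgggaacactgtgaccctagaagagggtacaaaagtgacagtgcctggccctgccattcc

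Lcn5 had a TATAAA that began 28 bases before its start and Rnase10 had a TGTTCT that began 42 bases before its start, while the Lcn8 and Rnase9 windows held no match. Of the 10 genes, 9 had an entry in the promoter table. The 250 bases before the start held AGAACA or its reverse complement in 3 of these 9 (Lcn9, Lcn10 and Rnase10), beside 16.1% of 32817 mouse promoters. TATAAA or its reverse complement occurred in 2 of the 9 (Lcn5 and Crisp1) and in 12.4% of all promoters, and AGGAAG or CTTCCT, the letters of the PEA3 site, in 0 of the 9 and 29.5% of all promoters. In the windows printed here no match overlapped another, and a match is only a match of letters.

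In the deposited values, most of the 10 epididymal genes ranked high among the genes of these fat libraries. On the per-length scale of the deposited FPKM values, the median level over the 24 libraries was 260 for Gpx5, 199 for Lcn8, 141 for Lcn5, 104 for Cst8 and 75.2 for Lcn10. The others followed with 58.8 for Adam7, 54.0 for Lcn9, 52.8 for Rnase9, 29.2 for Rnase10 and 8.52 for Crisp1. Gpx5 ranked 293 among 54232 genes by this median, of which 21753 had a median above 0. The strand setting of the counting is not given, and genes with opposite-strand exon overlap held 79.9% of all counts. How far these levels follow the strand of each gene was not tested.

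For comparison, Adipoq, the adipocyte hormone adiponectin whose promoter drives the lentivirus, had a median FPKM of 20.1, below that of 9 of the 10 epididymal genes. None of 20 adipocyte genes exceeded Gpx5: the highest, the adipocyte protease Cfd (adipsin), was at 72.1, and Cd36 and Pparg, a fatty acid transporter and the adipogenic nuclear receptor, were under 1. Counts of adipocyte genes were thus present in the libraries labelled as adipose tissue, mostly at lower deposited FPKM than the epididymal genes. Of the 20 adipocyte genes, Plin4, Lipe, Acsl1, Cebpa and Adrb3 share exon bases with opposite-strand genes. The limit on strand given above holds here too, so this is a comparison of deposited values. In bulk RNA, fewer cells of a type and less RNA per cell cannot be told apart.

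The summed level of the 10 genes varied by 122-fold between libraries. They held a median of 0.133% of all counts, from 0.00279% in PNx replicate 1 (95% Wilson interval 0.00225 to 0.00345%) to 0.280% in PNx+NaKtide replicate 1 (0.272 to 0.288%), where the intervals cover counting error only. Over genes with no opposite-strand exon overlap alone, the median share was 0.732%. On the TMM-scaled CPM scale, the sum had a median of 1564 and lay at 20.4 in PNx replicate 1, 32.3 in NaKtide replicate 6, 122.7 in PNx replicate 6, 265 in PNx replicate 2 and 664 in PNx replicate 3. All the other 19 libraries were at 839 or above, up to 2500 in NaKtide replicate 5.

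**Figure D1:**
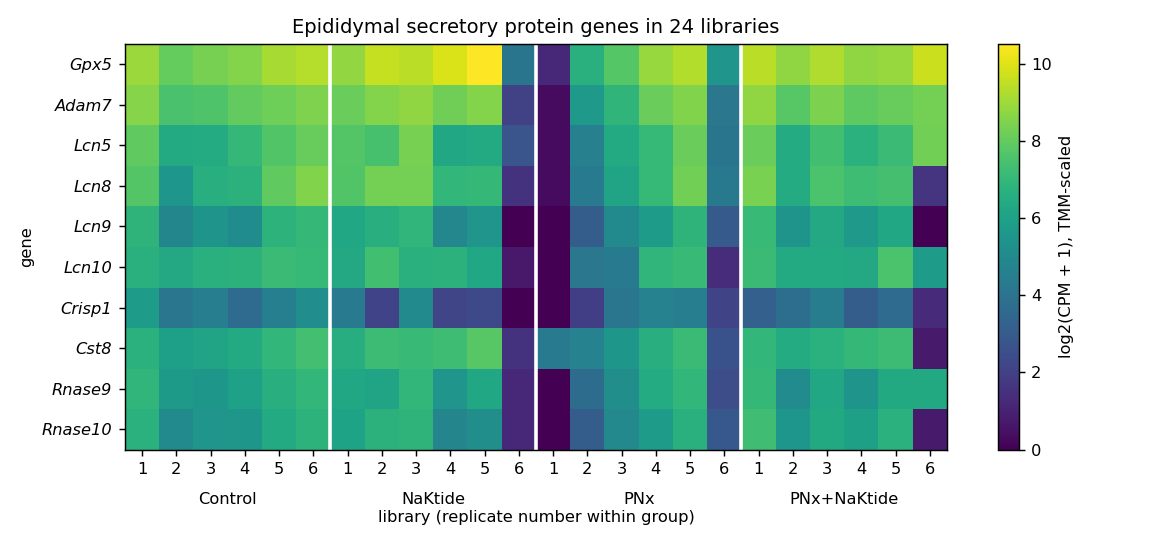
Heat map of log2(CPM + 1), TMM-scaled, for the 10 epididymal genes (vertical axis) in the 24 libraries (horizontal axis, replicate number within each of the 4 groups). PNx replicates 1 and 6 and NaKtide replicate 6 are dark for nearly every gene, and PNx+NaKtide replicate 6 is dark for Lcn8, Lcn9, Crisp1, Cst8 and Rnase10 only.

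In groups, the sum ran from 839 to 2338 CPM in Control (mean 1537 ± 594, SD, n = 6) and from 1140 to 2416 in PNx+NaKtide (1641 ± 446). It ran from 32.3 to 2500 in NaKtide (1752 ± 916) and from 20.4 to 2204 in PNx (787 ± 867). Control and PNx+NaKtide therefore held no library at the low end, NaKtide held 1, and PNx held 4 below the lowest Control library beside 2 within the Control range. The order of the medians was NaKtide (2021), PNx+NaKtide (1621), Control (1548) and PNx (464), and the ranges of neighbouring groups in this order overlapped.

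The libraries low in epididymal transcripts were also unusual in other tissue genes, counted only over list genes that share no exon bases with an opposite strand. PNx replicate 6 and NaKtide replicate 6 had the highest sums of 15 adipocyte genes, 6680 and 3976 CPM, against a median of 325 over all libraries. NaKtide replicate 6 had 3939 CPM of 7 skeletal muscle genes (median 7.20), and PNx replicate 6 had 318 CPM of 11 seminal vesicle and prostate genes (median 1.07). The same pair of libraries had the highest sums of 9 macrophage genes, 174 and 127 CPM (median 36.0).

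PNx replicates 1, 2 and 3 differed from that pair. Their adipocyte sums were 227, 239 and 225 CPM, below the median, whereas their sums of 7 haploid sperm genes, 987, 916 and 1184 CPM, were the 3 highest of all libraries (median 289). PNx+NaKtide replicates 2, 3 and 4 also had high sperm sums, 568, 774 and 798 CPM, but epididymal sums of 1140, 1757 and 1290 CPM. So did NaKtide replicate 3, a sham library, with a sperm sum of 660.5 CPM and an epididymal sum of 2395 CPM. Smooth muscle genes, 4 in number, summed to 392 to 534 CPM in those 3 PNx+NaKtide libraries and to 20.6 to 64.8 CPM in PNx replicates 1, 2 and 3 (median 155). The part of these other tissue transcripts in the group differences below was not tested.

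**Figure D2:**
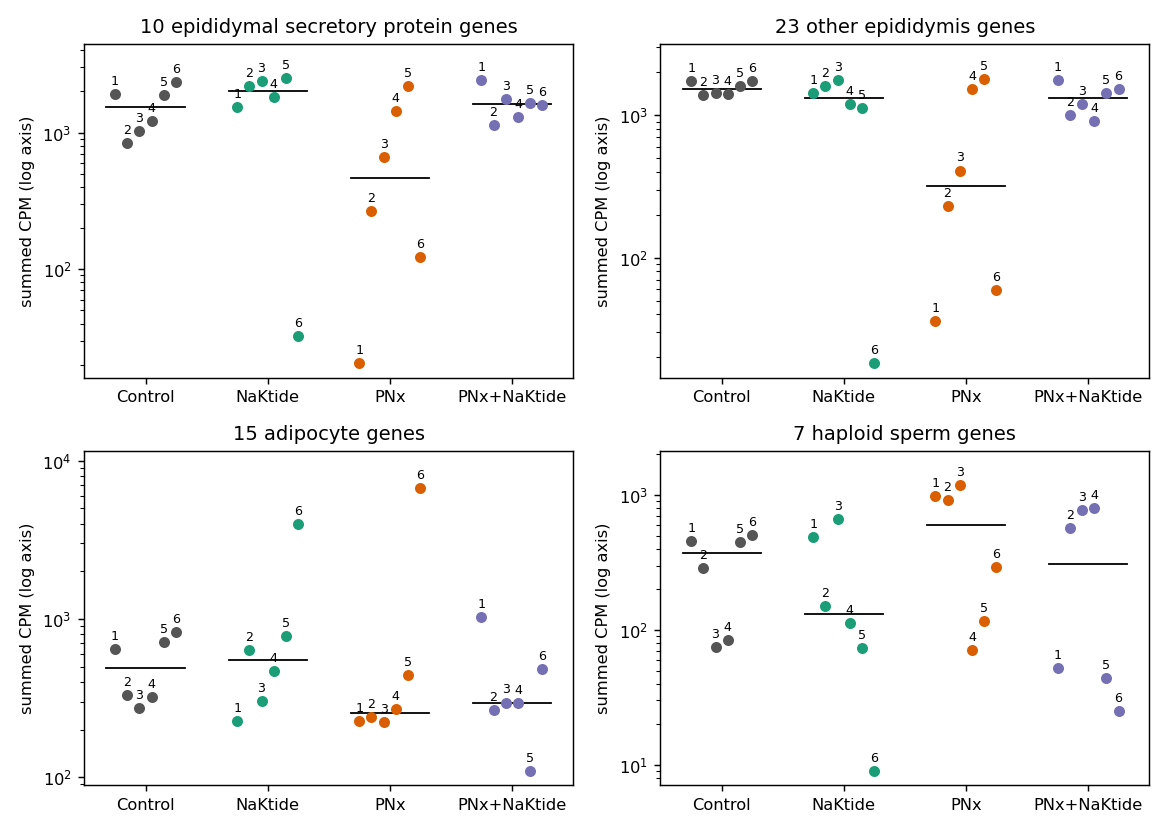
Summed CPM (log axes) of the 10 epididymal secretory protein genes, 23 other epididymis genes, 15 adipocyte genes and 7 haploid sperm genes in each library. Points are libraries numbered by replicate and horizontal bars are group medians; PNx replicates 1, 2, 3 and 6 and NaKtide replicate 6 lie low in both epididymis panels, PNx replicate 6 and NaKtide replicate 6 lie high in the adipocyte panel, and PNx replicates 1, 2 and 3 lie high in the sperm panel.

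Among the caput proteins, Gpx5 had the most counts, 17440 over all libraries. Its level in CPM had a lowest, median and highest value of 258, 435 and 650.5 in Control, 16.2, 727 and 1459 in NaKtide, 1.23, 157 and 630 in PNx, and 430, 545 and 813 in PNx+NaKtide. The groups overlapped, and 4 of the 6 PNx libraries lay below the whole Control range while 4 of the 6 NaKtide libraries lay above it. The mean was 444 ± 150 in Control, 724 ± 486 in NaKtide, 244 ± 254 in PNx and 576 ± 154 in PNx+NaKtide (SD, n = 6 each).

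Adam7, the sperm-surface protein gene, had the next most counts, 9559. Its lowest, median and highest CPM were 182, 275 and 388.5 in Control, 3.23, 336 and 431 in NaKtide, 0.246, 84.1 and 361 in PNx, and 218, 292 and 429 in PNx+NaKtide. Again NaKtide replicate 6 and PNx replicates 1, 2, 3 and 6 were the low libraries, and the groups overlapped.

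Among the lipocalins, NaKtide replicate 6 and PNx replicates 1, 2 and 6 were low, whereas PNx replicate 3 lay within or at the edge of the Control range for Lcn5, Lcn8 and Lcn9. Lcn5, the retinoic acid carrier, had a lowest, median and highest CPM of 85.6, 164 and 270 in Control, 5.82, 130 and 329 in NaKtide, 0.246, 54.3 and 272 in PNx, and 88.1, 151.5 and 309 in PNx+NaKtide. Lcn8 had 45.5, 156 and 370 in Control, 1.94, 164 and 321 in NaKtide, 0.246, 44.4 and 305 in PNx, and 2.04, 160 and 335 in PNx+NaKtide. Unlike Lcn5, Lcn8 had a library near 0 in PNx+NaKtide.

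Lcn9 and Lcn10, the other lipocalins, were lower. For Lcn9 the values were 27.5, 76.5 and 126.5 in Control, 0, 60.6 and 119 in NaKtide, 0, 19.4 and 113 in PNx, and 0, 64.1 and 137 in PNx+NaKtide, so that 1 library of each group but Control held no Lcn9 count. Lcn10 had 80.5, 104 and 142.5 in Control, 0.646, 90.6 and 159 in NaKtide, 0, 17.7 and 137 in PNx, and 55.7, 85.8 and 184 in PNx+NaKtide. The group ranges of both lipocalins overlapped.

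Both ribonuclease-like genes had group medians between 51.1 and 79.6 CPM except in PNx. Rnase9 had a lowest, median and highest CPM of 46.2, 79.6 and 125 in Control, 1.29, 72.4 and 124 in NaKtide, 0, 23.97 and 122 in PNx, and 32.3, 79.3 and 126 in PNx+NaKtide. Rnase10 had 31.5, 65.3 and 110 in Control, 1.29, 51.1 and 113 in NaKtide, 0, 19.0 and 101.6 in PNx, and 0.679, 72.2 and 156 in PNx+NaKtide. As with the lipocalins, the pair differed in PNx+NaKtide, where Rnase10 and not Rnase9 had a library near 0.

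The cystatin Cst8 had 60.5, 94.1 and 165 CPM in Control, 1.94, 140 and 217 in NaKtide, 5.28, 35.3 and 141 in PNx, and 0.679, 114 and 145 in PNx+NaKtide. It was the only member whose lowest PNx library was replicate 6 and not replicate 1. Crisp1, known from segments beyond the proximal caput as well, was the least abundant member, with 630 counts in all. Its values were 11.7, 21.8 and 52.9 CPM in Control, 0, 3.79 and 32.1 in NaKtide, 0, 9.90 and 24.3 in PNx, and 1.36, 9.97 and 20.7 in PNx+NaKtide.

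Over the 10 genes, the ranges of neighbouring groups in the order of the medians overlapped in 30 of 30 pairs. Separate groups were rare over the whole table as well, with 0.0881% to 0.486% of genes in the 4 comparisons of groups. PNx had the lowest median for 9 genes, and for Crisp1 the lowest median was that of NaKtide. The highest median was that of NaKtide for Gpx5, Adam7, Lcn8 and Cst8, that of Control for Lcn5, Lcn9, Lcn10, Crisp1 and Rnase9, and that of PNx+NaKtide for Rnase10.

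The levels of the 10 genes rose and fell largely together. Over the 24 libraries, Pearson's r of log2(CPM + 1) ran from 0.511 (Lcn5 and Cst8) to 0.990 (Lcn9 and Rnase10), with a median of 0.815 over the 45 pairs. Over the 22 libraries with at least 100 counts of the 10 genes, that is without PNx replicate 1 and NaKtide replicate 6, it ran from 0.113 (Gpx5 and Crisp1) to 0.989, with a median of 0.605. Points in these correlations share their library, its depth and its scaling, and r is given as a description.

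In the median over genes, the composition of the epididymal counts was steadier than their amount, but this did not hold equally for every gene. The SD of a gene's log2 ratio to the summed other 9 genes had a median of 0.68 over the 10 genes in these 22 libraries, against a median SD of 1.30 for log2 CPM. Lcn9 entered with 21 of these libraries, since it had no count in PNx+NaKtide replicate 6, where its share departed most. Adam7 had the steadiest share, with an SD of 0.21 for the ratio and 1.09 for its CPM, and took 13.8% to 21.6% of the epididymal counts. For Crisp1 the SD of the ratio, 1.46, was as large as that of its CPM, 1.39. For Lcn8, Cst8 and Rnase10 it was little smaller, 1.47, 1.61 and 1.52 against 1.77, 1.88 and 1.785.

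**Figure D3:**
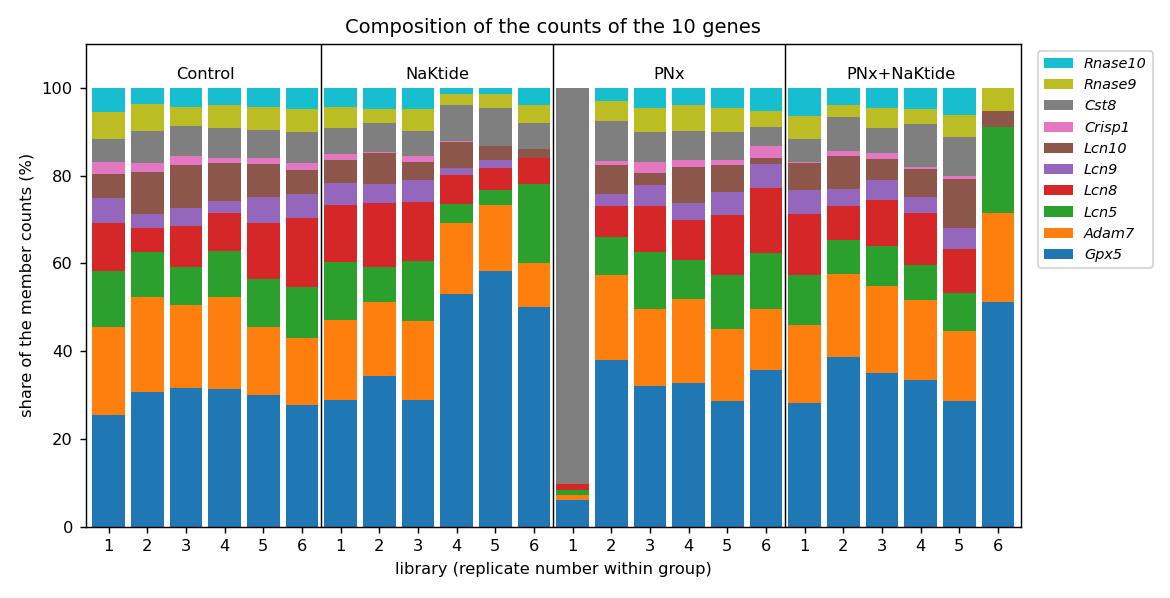
Share (%) of the counts of the 10 epididymal genes taken by each gene, as stacked bars, in each of the 24 libraries (horizontal axis, replicate number within group). Cst8 takes 90.4% in PNx replicate 1, Gpx5 takes 53.0% and 58.3% in NaKtide replicates 4 and 5, and Lcn8, Cst8 and Rnase10 are each under 1% in PNx+NaKtide replicate 6; PNx replicate 1 and NaKtide replicate 6 rest on 83 and 50 counts.

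In PNx+NaKtide replicate 6, with 2334 counts of the 10 genes, the set came apart. Gpx5 had 1198 counts, Adam7 472, Lcn5 455, Rnase9 120 and Lcn10 82, which lay within or near the range of the other 5 libraries of the group. Lcn8 had 3 counts, against 158 to 605 in the other 5, Cst8 had 1 against 144 to 226, and Rnase10 had 1 against 80 to 282. Lcn9 had 0 against 64 to 247, and Crisp1 had 2 against 10 to 29. Low Crisp1 was not particular to this library. NaKtide replicates 2, 4 and 5 had 5, 3 and 2 Crisp1 counts beside 1147, 802 and 741 of Gpx5.

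The neighbouring genes whose promoters are printed above parted in this library. The ratio of Lcn8 to Lcn5 counts was 0.00659 there and ran from 0.532 to 1.83 in the other 21 libraries with at least 100 epididymal counts (median over the 22 libraries 1.1). The ratio of Rnase10 to Rnase9 was 0.00833, against 0.462 to 1.52 elsewhere, and that of Cst8 to Gpx5 was 0.000835, against 0.121 to 0.305. Lcn8, Cst8 and Rnase10 are known from the initial segment and proximal caput of the mouse epididymis. Lcn9 and Crisp1 were low in this library too, and Crisp1 is known from segments beyond the proximal caput as well. This is background: segments were not measured here, and their part in the pattern was not tested.

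Other epididymis genes, of which 23 had over 100 counts in all, were divided in the same library. Set against the median CPM of the other 5 PNx+NaKtide libraries, 16 of the 23 were at 0.5 times or more and 3 were under 0.2 times. The 3 were Adam28, a relative of Adam7, with 7 counts against 99 to 312, the ovochymase gene Ovch2 with 4 against 51 to 154, and Teddm1a with 21 against 169 to 346 (its exons share 556 bases with the opposite strand). By contrast Teddm1b had 547 counts, the defensin-like Spag11b 220, the lipocalin Lcn12 155 and the protease inhibitor Spink8 146, which was 1.71 to 4.42 times that median, while the receptor tyrosine kinase Ros1, known from the initial segment, had 13 counts (0.824 times).

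Another departure was that of PNx replicate 1, in which Cst8 had 75 of the 83 epididymal counts and the other 9 genes had 0 to 5 each. Cst8 was thus at 18.5 CPM there while Gpx5 was at 1.23. The 7 haploid sperm genes summed to 987 CPM in this library; in PNx replicates 2 and 3, where they summed to 916 and 1184 CPM, Cst8 had 60 and 184 counts beside 250 and 841 of Gpx5.

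NaKtide replicates 4 and 5 held a larger share of Gpx5, 53.0% and 58.3% of the epididymal counts, than any other library with at least 100 such counts (25.4% to 51.3%). Among these 22 libraries the ratio of Adam7 to Gpx5 was also lowest in that pair, 0.307 and 0.256, against a median of 0.554, and PNx replicate 6 had the lowest share of Lcn10, 1.23%, against a median of 6.1%.

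**Figure D4:**
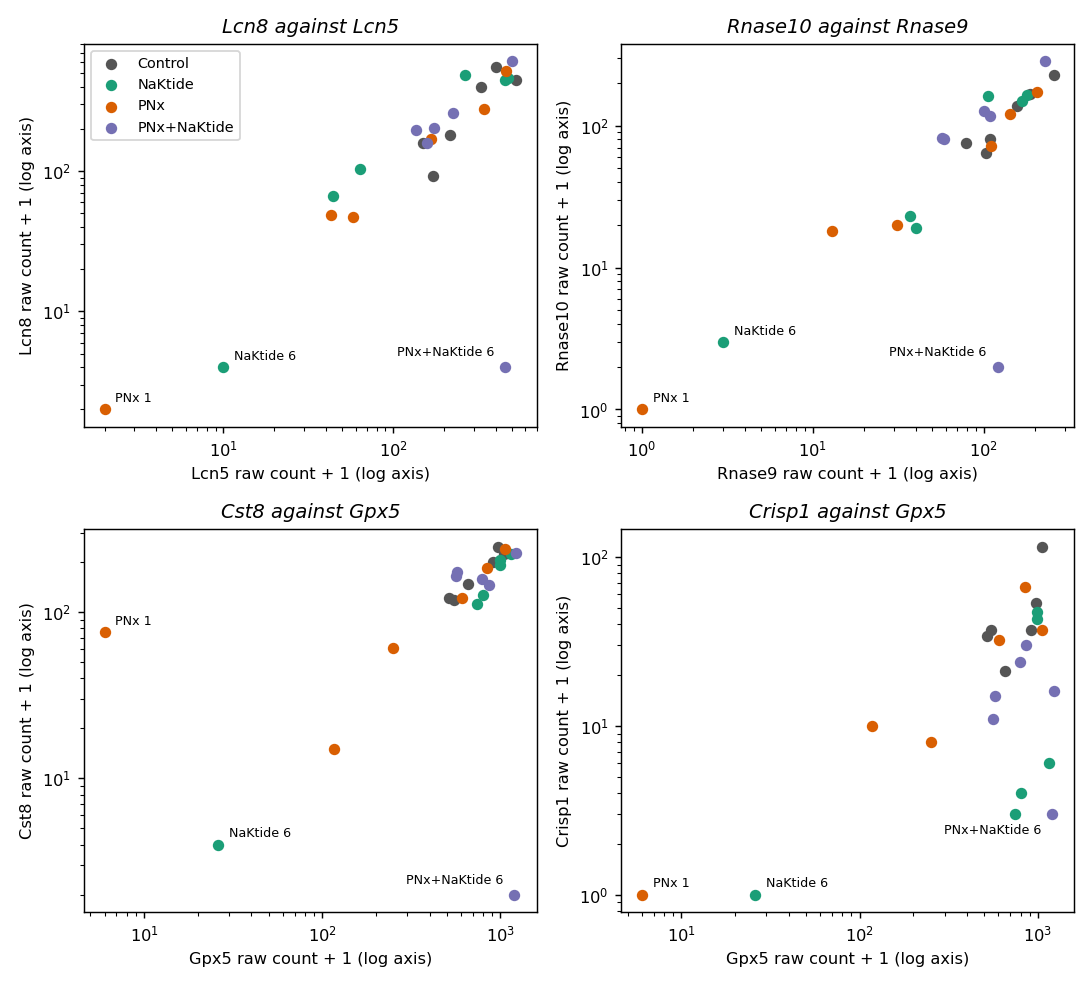
Raw counts plus 1 on log axes for Lcn8 against Lcn5, Rnase10 against Rnase9, Cst8 against Gpx5 and Crisp1 against Gpx5, one point per library, coloured by group. For Lcn8, Rnase10 and Cst8, PNx+NaKtide replicate 6 lies far below the other libraries with similar Lcn5, Rnase9 or Gpx5 counts, for Crisp1 it lies beside NaKtide replicates 4 and 5, and PNx replicate 1 lies at 75 Cst8 counts with 5 Gpx5 counts.

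The question of the surgical comparison, PNx against Control, was how renal failure alters fat transcripts. For the 10 genes the fitted log2 fold changes lay between −1.25 (Crisp1) and −0.87 (Gpx5), with SEs of 0.77 to 1.02, and their median was −1.003 beside 0.36 for all genes tested. None passed the test: 0 of the 10 were called by edgeR at a BH-adjusted p-value of 0.1, beside 0.0766% of all 26116 genes (20 genes), and 0 had an unadjusted p-value under 0.05, beside 25.4% of all genes. BH-adjusted p-values from edgeR's quasi-likelihood test were 0.32 to 0.513, and for no gene were the groups separate (0.486% of all genes). All 10 estimates were below 0, and for each gene 4 to 6 of the 6 PNx libraries lay below the Control mean and 3 or 4 lay below the lowest Control library.

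The count over all genes depended on the fit: 7764 genes were called by DESeq2, 8696 by edgeR with DESeq2 size factors, 4102 with library size scaling, 2159 after a stricter filter on low counts and, with 1 library left out, 0 to 8645 (without PNx replicate 4), while 0 of the 10 epididymal genes were called in each of these. The size of the difference in the epididymal genes rested on the low PNx libraries. Without PNx replicate 1 the median log2 fold change of the 10 genes was −0.74, and without PNx replicate 5, one of the libraries in the Control range, it was −1.68. Without PNx replicates 1, 2 and 3 it was −0.33, beside −0.05 for all genes. Limma with voom sample weights, which calls 63.8% of all genes in this comparison, called 9 of the 10 genes and put their median at −3.08.

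For PNx+NaKtide against PNx, the comparison that asks what adipocyte NaKtide alters in renal failure, the fitted log2 fold changes ran from −0.10 (Crisp1) to 1.24 (Gpx5), with a median of 0.96 beside −0.37 for all genes. Here too 0 of the 10 genes were called by edgeR (0.0% of all genes), with BH-adjusted p-values of 0.45 to 0.957, and 0 had an unadjusted p-value under 0.05 (12.7%). The groups overlapped for every gene of the 10 (0.456% of all genes did not). This comparison shares the PNx libraries with the previous one, and without PNx replicates 1, 2 and 3 the median was 0.28. Under voom with sample weights 7 of the 10 were called, beside 44.0% of all genes.

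In sham mice, NaKtide against Control, the log2 fold changes ran from −1.31 (Crisp1) to 0.70 (Gpx5), with a median of −0.24 beside 0.00 for all genes, and 0 of the 10 were called by edgeR (0.0% of all genes) or had an unadjusted p-value under 0.05 (3.95%). The groups overlapped for all 10 (0.314% of all genes did not). Crisp1 had a mean of 10.3 ± 12.6 CPM in NaKtide and 26.6 ± 15.1 in Control, and its edgeR BH-adjusted p-value was 1. Without NaKtide replicate 6 the median of the 10 genes was 0.02. PNx+NaKtide against NaKtide gave a median of 0.07 beside 0.04 for all genes, with 0 of the 10 called (0.0% of all genes), 0 at an unadjusted p-value under 0.05 (4.09%) and 0 without overlap (0.0881%), and without NaKtide replicate 6 it was −0.19.

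The interaction, which asks whether NaKtide acted differently after PNx than after sham surgery, had estimates of 0.54 (Gpx5) to 1.45 (Lcn10) on the log2 scale, with SEs of 1.08 to 1.43 and edgeR BH-adjusted p-values of 0.703 to 0.871. None of the 10 genes was called (0.0% of all genes), and 0 had an unadjusted p-value under 0.05 (9.27%). Voom with sample weights called 4 of the 10, beside 25.5% of all genes. The spread between libraries of a group was large over the whole table, with a common biological coefficient of variation of 71.4%.

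**Figure D5:**
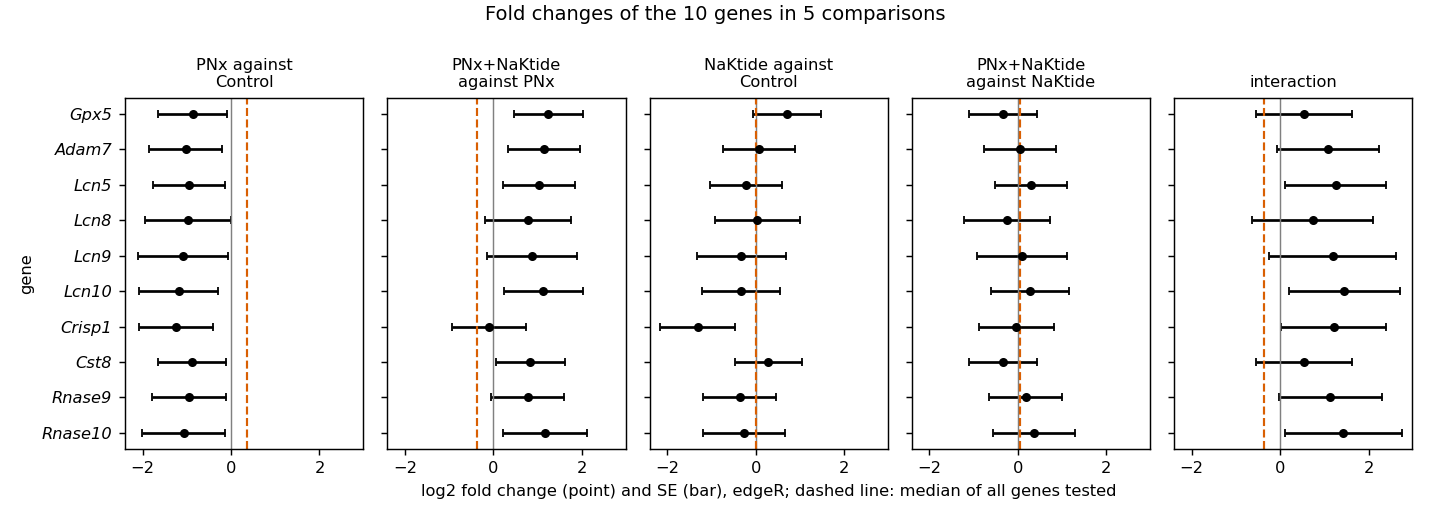
Log2 fold changes (points) with their SEs (bars) from edgeR for the 10 genes in 5 comparisons; the dashed line is the median of all genes tested in that comparison. The points lie left of 0 for all 10 genes in PNx against Control and right of 0 for 9 of 10 in PNx+NaKtide against PNx, and no gene passed the test in any comparison.

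Other genes of the epididymis varied in the same libraries. A list of 25 further epididymis genes had 24 in the table, of which 23 share no exon base with an opposite strand, and these 23 summed to a median of 1414 CPM, with the lowest values in NaKtide replicate 6 (18.1), PNx replicate 1 (36.0), PNx replicate 6 (58.9), PNx replicate 2 (231) and PNx replicate 3 (408). These are the libraries that were lowest for the 10 secretory protein genes. In PNx against Control, 23 genes of the list were tested. These include Teddm1a, which shares 556 exon bases with the opposite strand, but not Spink13, with 9 counts. They are thus not the same 23 as those summed above. Of the tested genes, 0 were called and 2 were lower at an unadjusted p-value under 0.05 in edgeR (6.88% of all genes). Their median log2 fold change was −1.16, from −2.08 (Rnase11) to −0.28 (Crisp4). In PNx+NaKtide against PNx the median of the tested genes was 1.03, 0 of these 23 were called and 2 were higher at an unadjusted p-value under 0.05 in edgeR (4.07% of all genes).

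Beta-defensins, antimicrobial peptides of which many are made by epididymal epithelium, showed a like pattern. Of 43 genes of the family, 30 were tested, and the family summed to a median of 1472 CPM, from 14.9 in NaKtide replicate 6 to 2657 in PNx+NaKtide replicate 5. In PNx replicate 1 the sum was 35.2 CPM. In PNx+NaKtide replicate 6 it was 1069, near the 1354 median of the other libraries of that group. Over the 24 libraries the sum of the family had a Pearson's r of 0.957 and a Spearman's rho of 0.662 with the sum of the 10 genes.

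Across 19430 genes with a mean of at least 1 CPM, the 15 whose log2 CPM was most like that of the summed epididymal genes had Pearson's r of 0.954 to 0.983 over the 24 libraries. In order they were Ly6g5c, Gm17416, Tmem150c, Defb20, Spag11b, Lcn2, Ido1, Epp13, Tmem51, Cst11, Wfdc10, Gm1110, Lcn6, Zfp648 and Ezr. Of these, Spag11b, Cst11, Wfdc10 and Lcn6 were on the list of other epididymis genes, Defb20 was a beta-defensin, and Lcn2 is the iron-siderophore-binding lipocalin known also from neutrophils and fat. In all, 154 genes had r above 0.9. The choice leaned on the libraries with the lowest levels: 6 of the 15 were also in the top 15 without PNx replicate 1 and NaKtide replicate 6, and 8 without PNx replicates 1, 2 and 3. Tmem150c, Tmem51 and Ezr share exon bases with opposite-strand genes.

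The 5 genes least like the sum were Gm9823, Scn4b, Trp53i13, Gm17233 and Gm16042, with r of −0.84 to −0.78. Scn4b, a sodium channel subunit of muscle and nerve, had 50 counts in all, and the other 4 share exon bases with opposite-strand genes.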

How the data were processed

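Total RNA labelled as adipose tissue from 24 mice was made into stranded mRNA libraries (TruSeq, per the labels). Per the submitters' processing notes and the study's methods, the authors trimmed reads with Trimmomatic 0.38, aligned them to GRCm38 with HISAT2 2.1.0 and counted reads per gene with GenomicAlignments, and used DESeq2 1.20.0. The strand setting of the counting is not given in the sources used here. mt-Nd6, the minus-strand mitochondrial mRNA gene, held 67.6 times the mean counts per kb of the 12 plus-strand ones. Opposite-strand exon overlap was therefore marked for named genes of the lists and of the likeness ranking. Genes with such overlap were left out of the sums of the tissue gene lists, but not out of the tests.

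The deposited raw counts are whole numbers per gene, not normalized. The deposited FPKM values were used for levels between genes and as an alternative. The deposited normalized counts were not used.

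Gene symbols and exons came from GENCODE M21 (GRCm38), which matched 54079 of 54232 identifiers. Genes with more than 10 counts in all were fitted with edgeR 4.0.16 (TMM scaling, quasi-likelihood test, R 4.3.3) over the 4 groups, and p-values were Benjamini-Hochberg adjusted over 26116 genes with a threshold of 0.1. This adjusted p-value threshold is that of the study's methods; the authors fitted DESeq2 and edgeR is used here. Correlations and heat maps used log2(CPM + 1). Alternatives were DESeq2 1.42.0, limma 3.58.1 (voom, and log2 of FPKM plus 0.1), other filters and scalings, a replicate block and leaving out libraries, some of which were added after the data were seen.

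The genes, gene lists and library exclusions were chosen with earlier results of these data known. Genes named for likeness were the 15 highest and 5 lowest in Pearson's r with the summed members. Nothing in the sources says more of how replicates were obtained than that each group held 6 mice. The p-values set group differences against the spread between these samples. Of the pairs of libraries within a group, none agreed within sampling noise (lowest chi-square per degree of freedom 1.57). Intervals and floors cover counting error only.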

Additional observations from a re-analysis of the deposited data

Results flagged for a closer look

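Gaps at the edge of a group were examined in 60 sets of 6 values, and 19 exceeded Dixon's 95% critical share of the whole range. Levels were taken as log2(CPM + 1) and ratios of counts on a log2 scale, and the ranges are those of these log2 values. Chance alone passes this limit in about 1 in 20 groups, and the sets are not independent, since the genes share libraries. The flags hold for the log2 scale only, since a gap on the low side takes a smaller share of a range in CPM. For Gpx5 in NaKtide, replicate 6 was at 16.2 CPM, replicate 1, the next lowest, at 447, and replicate 5, the highest, at 1459.

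In the NaKtide group the low library was replicate 6 in 10 sets. The gap took 0.734 of the range for Gpx5, 0.906 for Adam7, 0.626 for Lcn5, 0.8 for Lcn8, 0.703 for Lcn9, 0.848 for Lcn10, 0.802 for Cst8, 0.742 for Rnase9, 0.637 for Rnase10 and 0.888 for the sum of the 10 genes.

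In the PNx+NaKtide group replicate 6 was the low library in 8 sets. The gap took 0.718 of the range for the level of Lcn8, 0.768 for Lcn9, 0.888 for Cst8 and 0.727 for Rnase10. For ratios of counts it took 0.929 for Lcn8 to Lcn5, 0.936 for Rnase10 to Rnase9, 0.891 for Cst8 to Gpx5 and 0.643 for Crisp1 to Gpx5.

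In the PNx group the ratio of Cst8 to Gpx5 was high in replicate 1, with a gap of 0.859 of the range.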

How the results depend on the processing

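The number of the 10 genes called stayed at 0 in all 5 comparisons under DESeq2, other size factors and filters, limma on log2 FPKM, an adjusted p-value of 0.05, the compared groups fitted alone (not applicable to the interaction) and the exclusions of libraries. It was also 0 in 72 edgeR refits that each left out 1 library. The exception was limma voom with sample weights, which called 9 genes in PNx against Control (median log2 fold change −3.08), 7 in PNx+NaKtide against PNx and 4 for the interaction, where it called 16654, 11479 and 6662 of all genes; the cause was not tested. Leaving out 1 library, the median log2 fold change of the 10 genes ran from −1.68 to −0.74, from 0.72 to 1.72, from −0.47 to 0.02, from −0.19 to 0.36 and, for the interaction, from 0.89 to 1.73, in the order of the comparisons in the text. The sign was kept under every alternative by 10 genes in PNx against Control, 9 in PNx+NaKtide against PNx (not Crisp1), 6 in NaKtide against Control, 2 in PNx+NaKtide against NaKtide and 8 for the interaction.

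Correlations of same-numbered deviations between groups ran from −0.592 to 0.712. Differently numbered libraries were not compared, so these values cannot show whether replicate numbers pair the samples. With the replicate block, 0 of the 10 genes were called and their medians were −1.61, 1.16, −0.48, 0.22 and 1.64. Over all genes it called 1 in PNx against Control and 2 for the interaction. Counted against genes with no opposite-strand overlap alone, the median share of counts was 0.732% in place of 0.133%, by the smaller denominator. Ranking by Spearman's rho kept 6 of the 15 most similar genes. Depth limits low values: at most 3 counts were seen for Crisp1 in 5 libraries and for Lcn8, Lcn9 and Rnase10 in 3 each, so differences among those libraries were not detectable.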
